A study of Mus musculus with 6 samples.

Results

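The genes described here encode the proteins of the cytosolic ribosome. Members were taken by symbol: every row of the deposited expression table named Rpl or Rps with a number (with an optional a, x, l or 1 ending), together with Rplp0, Rplp1, Rplp2 and Rpsa. That gave 85 of 24421 rows, 33 for the small (40S) and 52 for the large (60S) subunit. The symbol rule misses some ribosomal proteins, such as Fau and Gnb2l1 (now Rack1), which are given separately. The 85 hold 77 canonical genes and 8 second genes of paralog pairs, namely Rpl3l, Rpl7l1, Rpl10l, Rpl22l1, Rpl36al, Rpl39l, Rps4l and Rps27l.

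The series compared 3 mammary gland libraries with 3 mammary tumour libraries, all of total RNA from flash-frozen tissue of 5 month old female mice of the inbred FVB/NJ strain. Tumours came from tumour-bearing mice of genotype MMTV-Tg(LINK-A), and glands from mice labelled Tg(LINK-A). LINK-A is a long non-coding RNA, and the mouse mammary tumour virus (MMTV) promoter drives transgenes mainly in mammary epithelium. The gland donors' label names the transgene and not the promoter, so tissue state and genotype cannot be told apart in the comparison. The labels do not say that each library came from a separate animal, so p-values measure the spread between these libraries, which may be technical.

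A cytosolic ribosome carries a single copy of nearly every one of these proteins, and mammalian cells transcribe their genes at high and closely matched levels. Their mRNAs share a short pyrimidine tract at the 5′ end through which mTOR signalling and Larp1 control their translation and their stability. The genes have left many processed pseudogenes in the mouse genome, which makes it hard to assign short reads to them. A few have a paralog that is used in particular tissues, such as Rpl3l in striated muscle and Rpl10l and Rpl39l in the testis.

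The first sequences shown are those of Rps27, its retrocopy and its paralog. Rps27, a zinc-binding protein of the small subunit, lies on chromosome 3 (chr3:90212522-90213651, minus strand). Its retrocopy Rps27rt lies on chromosome 9 (chr9:114982366-114982739, minus strand), and its paralog Rps27l, a target gene of p53, lies elsewhere on the same chromosome (chr9:66946086-66949516, plus strand). The coding sequences below are from GENCODE M21 for GRCm38 (mm10), and capitals mark bases that differ from Rps27. Rps27rt differed from Rps27 at 0 of 255 bases, and Rps27l at 61 of 255 (76.1% identity).
Rps27: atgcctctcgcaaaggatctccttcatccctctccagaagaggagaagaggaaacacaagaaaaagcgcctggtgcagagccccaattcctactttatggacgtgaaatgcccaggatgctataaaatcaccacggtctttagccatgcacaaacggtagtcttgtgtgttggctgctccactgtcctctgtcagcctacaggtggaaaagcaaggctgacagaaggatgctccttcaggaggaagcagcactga
Rps27rt: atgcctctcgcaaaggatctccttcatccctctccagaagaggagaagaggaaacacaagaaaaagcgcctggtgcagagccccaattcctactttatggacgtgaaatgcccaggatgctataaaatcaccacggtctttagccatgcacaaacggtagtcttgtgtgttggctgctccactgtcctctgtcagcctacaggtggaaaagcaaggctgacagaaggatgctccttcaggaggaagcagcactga
Rps27l: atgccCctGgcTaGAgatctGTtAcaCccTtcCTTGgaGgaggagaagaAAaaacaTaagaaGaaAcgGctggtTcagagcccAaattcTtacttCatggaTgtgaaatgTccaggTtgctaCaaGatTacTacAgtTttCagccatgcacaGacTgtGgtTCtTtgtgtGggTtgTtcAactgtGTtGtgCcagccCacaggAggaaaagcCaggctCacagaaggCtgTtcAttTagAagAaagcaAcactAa
A read from within this stretch matches Rps27 and Rps27rt equally, while Rps27l differs along its whole length.

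The ribosomal protein genes were among the most abundant mRNAs in every library. Levels are given in FPKM (fragments per kilobase of transcript, scaled to the mapped fragments of each library), which are per length and so can be compared between genes. Together the 85 genes held 13.8%, 13.0% and 14.97% of the summed FPKM of glands 1, 2 and 3, and 18.2%, 15.2% and 14.2% of that of tumours 1, 2 and 3. Tumour 1 stood highest, and tumour 3 lay between the glands. The summed level was 68475, 66512 and 75831 FPKM in the glands and 106068, 79218 and 69159 FPKM in the tumours. A sum over the members was given no test. In bulk tissue, fewer cells with a high level and a lower level per cell cannot be told apart.

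The canonical genes differed widely in listed level although their proteins are made in nearly equal numbers. Their median level over the 6 libraries was 945 FPKM. Of the 77, 36 had a mean of at least 1000 FPKM, 59 of at least 500 and 73 of at least 100. The highest was Rplp1, a protein of the stalk that recruits elongation factors, at 2973 ± 191 FPKM (SD, n = 3) in glands and 4040 ± 1070 in tumours. The lowest were Rpl26 and Rpl29, both under 10 FPKM. A near-identical copy of Rpl26, Gm15772, was listed at 1445 to 2491 FPKM, so these are levels of the rows as listed. Near-identical copies (at least 95% identity over at least 80% of the coding sequence) were annotated for 72 of the 77. The 17 genes with 10 or more copies had a median of 575 FPKM, and the 60 with fewer had a median of 1136 FPKM. Across these genes, level and number of copies had a Spearman correlation of -0.38, given as a description because the genes share the libraries and the counting.

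The canonical genes shifted together from library to library. Relative to the mean of the glands, the median log2(FPKM + 1) of the 77 canonical genes was -0.01, -0.09 and 0.09 in glands 1, 2 and 3. In tumours 1, 2 and 3 it was 0.54, 0.16 and 0.00. The summed FPKM of all genes had the same order in the tumours, at 582996, 522507 and 486080. In glands 1, 2 and 3 that sum was 495985, 510957 and 506450. With all libraries scaled to a common sum, the median change of the tested members was 0.17, against 0.24 as reported. Tumour 1 was the highest tumour for 75 of 77 genes and the highest library of all 6 for 74. Tumour 3 was the lowest tumour for 65 of 77. Among the glands, gland 3 was highest for 69 and gland 2 lowest for 63. The middle 50% of genes ran from 0.39 to 0.72 in tumour 1 and from 0.03 to 0.26 in tumour 2. In tumour 3 it ran from -0.19 to 0.15. Each gland was measured against a mean that includes it, which narrows the glands on this scale. The spread among genes therefore cannot be compared between tumours and glands here.

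**Figure D1:**
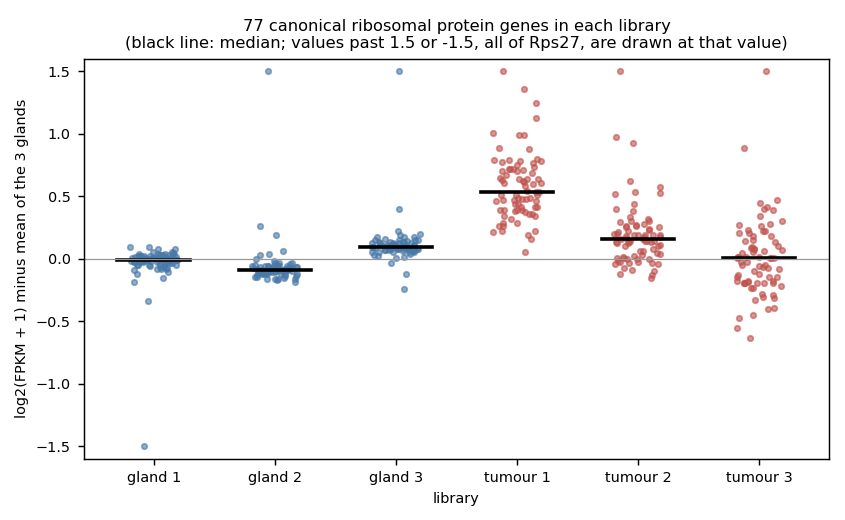
Each point is 1 of 77 canonical ribosomal protein genes in 1 library, as log2(FPKM + 1) minus the mean of the 3 glands, and black lines are medians. The glands lie around 0, being measured against their own mean. Tumour 1 is shifted up with a median of 0.54, and tumour 3 has its median at 0.00. Rps27 lies outside the axis in every library and is drawn at its edge.

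Some other measures had the same order among the tumours and others did not. S100a8, a calcium-binding protein of granulocytes that epithelium can also make, was at 28.7, 14.7 and 21.3 FPKM in the glands and at 3100, 1833 and 259 in the tumours. The summed level of 10 macrophage and granulocyte markers, of which S100a8 was the largest, ran from 153 to 189 FPKM in glands and from 331 to 3240 in tumours. Of the 9 tested, 1 rose and 4 fell, and Mpo was at 0 in 3 libraries. The 18 proliferation markers, all of which rose, summed to 1015, 920 and 884 FPKM in tumours 1, 2 and 3, against 301 to 358 in glands. Luminal epithelium markers summed to 3249, 3211 and 3629 FPKM in tumours 1, 2 and 3, adipocyte markers to 350, 354 and 95.9, and fibroblast markers to 369, 449 and 129, which is another order. The part of these in the ribosomal protein values was not tested.

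The tissue labels were checked against markers. All 12 luminal epithelium markers rose in tumours (limma), with summed levels of 1200 to 1273 FPKM in glands and 3211 to 3629 in tumours. All 10 adipocyte markers fell, from 8045 to 10230 FPKM down to 95.9 to 354, as did all 9 fibroblast and all 8 endothelial markers. Of 9 basal epithelium markers 5 fell. Lymphocyte markers (21 genes, 10 of which fell) summed to 543, 136 and 535 FPKM in glands 1, 2 and 3 and to 121, 109 and 17.2 in the tumours. Skeletal muscle markers summed to 11560 FPKM in gland 2, 1047 in gland 3 and 8.22 to 28.1 in the other libraries. Erythroid markers summed to 4231, 8924 and 4678 FPKM in glands 1, 2 and 3 and to 388 to 1267 in tumours. Lymphocyte, muscle and erythroid markers thus differed among the glands, and their part in the ribosomal protein values was not tested.

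To ask which ribosomal protein genes differed between tumour and gland, 13364 genes that averaged 1 FPKM or more were tested together on log2(FPKM + 1) with limma, and 84 of the 85 members were among them. Changes are on that log2 scale, which understates those of low genes. At an adjusted p of 0.05, 11 members were higher in tumours, 2 were lower and 71 passed in neither direction. Of the 2 lower, Rpl39l entered the test only through its gland values. Over all tested genes 45.1% were called, 21.9% higher and 23.1% lower, against 15.5%, 13.1% and 2.38% of the ribosomal protein genes. The members' share called was therefore below the background. The members' median change was 0.24 (quartiles 0.08 and 0.35), and that of all tested genes was 0.01. The change was positive in 74 of 84, but members shifted together from library to library, so their signs are not separate observations. Under quantile normalization both medians were 0.12, and 3663 of all genes were higher and 2620 lower, against 2933 and 3090 as reported. The count of 11 higher fell to 3 without gland 1, gland 2 or gland 3, to 4 without tumour 2 and to 0 without glands 1 and 3 together (limma, 2 at an unadjusted p under 0.05), while the median without tumour 1 was 0.06. It was 7 with no filter on low values, 6 with median-of-ratios scaling and 39 once a trend on gene length and GC content was removed, a step that moved the median of all genes to 0.16.

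The 3 tumours were all above the 3 glands for 27 members and all below for 2, and the groups overlapped for 55, so 34.5% were separated. Among all tested genes 58.2% were separated, 29.3% higher and 29% lower. Large-subunit genes made up 9 of the 11 higher and 1 of the 2 lower. The 46 canonical genes of the 60S subunit had a median change of 0.26 and 7 were higher. The 31 of the 40S subunit had a median change of 0.08 and 1, Rps2, was higher. The ratio of summed 60S to summed 40S levels was 1.26, 1.22 and 1.19 in the glands and 1.35, 1.35 and 1.37 in the tumours. Gland 1, with the highest ratio of the glands, is the library where the table lists almost no Rps27. The difference between the subunits was not tested.

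**Figure D2:**
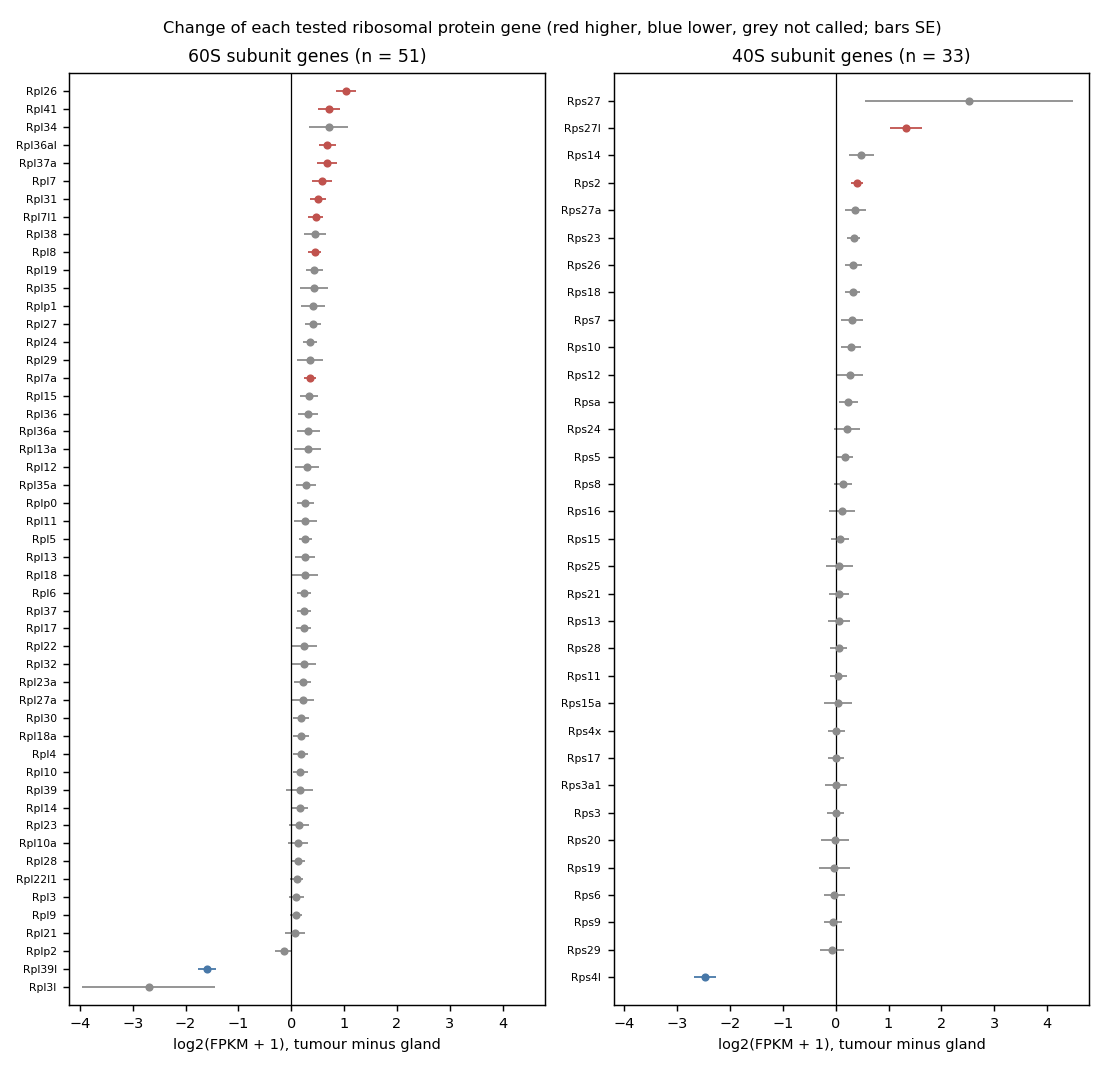
The change of each tested ribosomal protein gene (tumour minus gland, log2(FPKM + 1), bars SE) is plotted for 51 genes of the 60S and 33 of the 40S subunit. Most lie slightly above 0 and did not pass the test. Rps27 and Rpl3l have the widest bars, and Rps4l and Rpl39l lie far to the left.

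Among canonical genes of the large subunit, Rpl41, which encodes the smallest ribosomal protein, had the largest change among those that passed, apart from the low-level Rpl26. Rpl41 was at 1884, 1862 and 1983 FPKM in the glands and at 4164, 2841 and 2606 in the tumours. Every tumour exceeded every gland and tumour 1 stood apart, for a change of 0.72 (SE 0.21, limma, adjusted p = 0.0299). Rpl37a, a zinc-finger protein, was at 580, 584 and 718 FPKM in glands and at 1243, 961 and 819 in tumours. The groups did not overlap and the change was 0.67 (SE 0.19, limma, adjusted p = 0.0259). Rpl31, which sits near the exit of the peptide tunnel, was at 478, 466 and 518 FPKM in glands and 797, 706 and 584 in tumours. Its rise was 0.50 (SE 0.15, limma, adjusted p = 0.0294). Rpl31 overlaps Tbc1d8 on the opposite strand, which rose by 1.65, and the sources used here do not give strandedness. Rpl7 went from 1054, 1095 and 1312 FPKM to 2126, 1652 and 1456, a rise of 0.58 (SE 0.19, limma, adjusted p = 0.0409). In all of these tumour 1 was highest and tumour 3 lowest, the order of the whole set. Each call depended on single libraries: Rpl37a passed without gland 3, tumour 1 or tumour 3 but not without gland 1 (limma, adjusted p = 0.0921), gland 2 (0.0829) or tumour 2 (0.07). Rpl41 passed without tumour 1 or 3 but not with any 1 gland (0.0891 to 0.1) or tumour 2 (0.0641) left out, and the same held for Rpl31 (0.0724 to 0.0979, and 0.095 without tumour 2). Rpl7 passed only without tumour 3, and otherwise reached 0.0514 to 0.144.

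Rpl8 and Rpl7a rose more evenly across the tumours. Rpl8, a protein next to the catalytic centre, was at 883, 806 and 917 FPKM in the glands and at 1201, 1133 and 1202 in the tumours. Tumour 3 was as high as tumour 1 here, unlike in most of the set. The change of Rpl8 was 0.44 (SE 0.12, limma, adjusted p = 0.0247). Rpl7a was at 425, 413 and 433 FPKM in glands and at 585, 519 and 522 in tumours, a rise of 0.35 (SE 0.11, limma, adjusted p = 0.0366). Rps2, which lines the mRNA entry channel, was the only canonical small-subunit gene that passed. It was at 62.3, 53.7 and 61.1 FPKM in glands and at 84.5, 70.9 and 78.9 in tumours, a rise of 0.40 (SE 0.11, limma, adjusted p = 0.0262). That level is far below the canonical median of 945 FPKM, and none of the 18 annotated near-identical copies of Rps2 is listed. Rps2 overlaps Snora64 on its own strand, with a change of -1.22 (limma, adjusted p = 0.00713). On the opposite strand it overlaps Snora78, with a change of 0.73 (limma, adjusted p = 0.0481), and Snhg9. The part of these in its value was not tested. Rpl8 did not pass with any 1 gland (limma, adjusted p = 0.0736 to 0.0934) or tumour 2 (0.0705) left out. Rpl7a likewise did not pass with any 1 gland (0.104 to 0.12) or tumour 2 (0.0857) left out. Rps2 did not pass with any 1 gland (0.0565 to 0.0777) or tumour 1 (0.0551) left out.

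**Figure D3:**
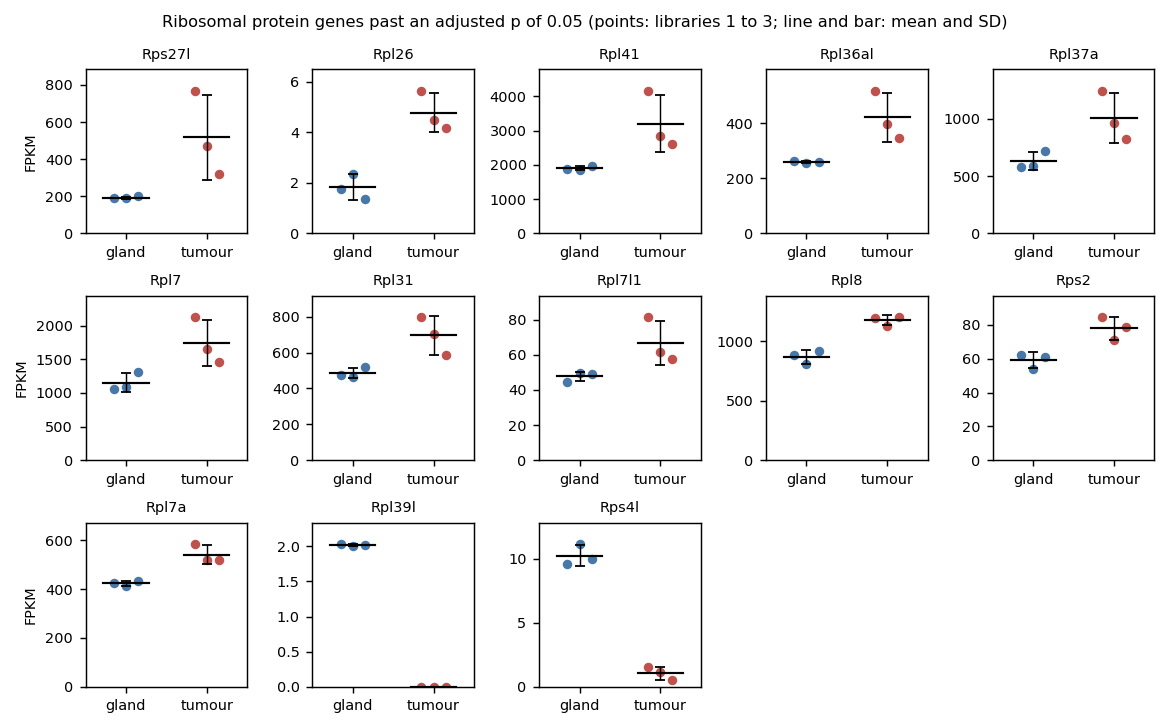
FPKM of the 13 ribosomal protein genes past an adjusted p of 0.05, with points for libraries 1, 2 and 3 of each group from left to right and lines and bars for mean and SD. Groups do not overlap in any panel. Tumour 1 is highest and tumour 3 lowest in most panels, though not for Rpl8, Rpl7a or Rps2, and Rpl39l is listed at 0 in all 3 tumours.

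Of the members that passed, the paralogs Rps4l and Rps27l had the largest changes. Rpl39l is left out of this ranking because it entered the test through the glands alone. Rps27l, whose protein takes the place of Rps27 in part of the ribosomes, was at 190, 189 and 199 FPKM in the glands and at 768, 469 and 319 in the tumours. The glands were nearly equal, and every tumour lay above them. The tumour mean was 2.69-fold the gland mean, with a change of 1.33 (SE 0.29, limma, adjusted p = 0.0102). Rps27l passed without any 1 library (0.00132 to 0.0355), and without glands 1 and 3 together its adjusted p was 0.186. Rpl36al, the autosomal paralog of the X-linked Rpl36a, was at 263, 255 and 259 FPKM in glands and at 517, 397 and 348 in tumours. Its groups did not overlap, and the change was 0.68 (SE 0.16, limma, adjusted p = 0.0133; 0.0505 without gland 3). Rpl36al differs from Rpl36a at 39 of 321 coding bases. Rpl7l1, a relative of Rpl7, was at 44.6, 49.6 and 49.2 FPKM in glands and 81.4, 61.5 and 57.6 in tumours, a rise of 0.46 (SE 0.15, limma, adjusted p = 0.0395). It did not pass with any 1 gland (0.0759 to 0.121) or tumour 2 (0.0715) left out. Of 43 tested genes within 1 Mb of Rpl7l1 on chromosome 17 (chr17:46773907-46782672), 14 rose and 4 fell. Over all tested genes 21.9% rose and 23.1% fell, and the part of the neighbourhood in its value was not tested.

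Both members that fell were paralogs at low level. Rps4l, annotated as a transcribed processed pseudogene on chromosome 6 (chr6:148354656-148355598), was at 9.60, 11.1 and 9.97 FPKM in the glands and at 1.51, 1.19 and 0.503 in the tumours. Every tumour was far below every gland, and Rps4l fell by 2.47 (SE 0.21, limma, adjusted p = 0.000204). It lies within Tmtc1, which is on the opposite strand and also fell, by 1.17 (adjusted p = 0.0146), so reads of the pair cannot be told apart without strand. Rpl39l, the testis-enriched paralog of Rpl39, was at 2.03, 2.004 and 2.02 FPKM in the glands and was listed at 0 in all 3 tumours. Its mean over the 6 libraries was 1.01 FPKM, just past the filter, so Rpl39l entered the test through the glands alone and had to differ. The call (limma, adjusted p = 0.000516) therefore carries no weight, and no fold is given against a listed 0. The call of Rps4l held without any 1 library. Rpl10l, the other testis paralog, was listed at 0 in all 6 libraries and was not tested.

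The share of each pair held by the paralog was compared with an exact 2-sided permutation test over the 20 arrangements of 3 against 3, for which 0.1 is the smallest p. With 7 pairs compared, no adjusted p could pass 0.05. Rpl36al held 28.2%, 27.99% and 24.6% of the pair with Rpl36a in glands and 29.96%, 33.4% and 32.9% in tumours (exact p = 0.1, adjusted 0.233). The groups did not overlap. The log2 ratio of Rps4l to Rps4x fell by 2.49 (exact p = 0.1, adjusted 0.233). Rpl39l held 0.296%, 0.319% and 0.286% of its pair with Rpl39 in the glands and was listed at 0 in the tumours, so the size of that difference is set by the pseudocount and is not given. For Rpl22l1 over Rpl22, a pair with opposed roles in T cell development, the difference was -0.13 (exact p = 0.6), and its sign turned to 0.021 without tumour 1. For Rpl7l1 over Rpl7 it was -0.12 (exact p = 0.3).

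Rpl3l, the striated muscle form of Rpl3, was at 0, 48.8 and 4.51 FPKM in glands 1, 2 and 3 and was listed at 0 in the tumours. The gland order of Rpl3l was that of the skeletal muscle markers given above, whose part in this value was not tested. Its change was -2.70 (SE 1.25, limma, adjusted p = 0.121), a size set by the pseudocount because the tumours are at 0. It was -1.23 without gland 2. Without gland 1, the only gland at 0, it was -4.05 and passed (limma, adjusted p = 0.0144). That call carries no weight, because Rpl3l entered the test through glands 2 and 3 alone.

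The change of Rps27 depended on whether a near-identical gene was summed with it, and how reads were assigned to the 2 was not tested. Rps27 was at 8.05, 1680 and 2165 FPKM in glands 1, 2 and 3. In tumours 1, 2 and 3 it was at 2260, 1755 and 1557. Gland 1 stood apart by a factor of more than 100. In gland 1 the retrocopy Rps27rt, identical over the coding sequence printed above, was at 2051 FPKM, against 5.12 to 22.8 in the other 5 libraries. The 2 rows summed to 2059, 1686 and 2185 FPKM in the glands and to 2268, 1767 and 1580 in the tumours, where the groups overlap and no library stands apart. The change of Rps27 was 2.52 as listed (SE 1.97, limma, adjusted p = 0.335), -0.056 without gland 1 and -0.087 with the copy summed (limma, adjusted p = 0.742). With the copy summed, Rps27l held 8.45%, 10.1% and 8.36% of its pair in the glands and 25.3%, 20.99% and 16.8% in the tumours. That is a log2 ratio higher by 1.42 (exact p = 0.1, adjusted 0.175), while with Rps27 as listed it was lower by 1.19 (a difference of -1.19, exact p = 1).

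Rpl26, which binds p53 mRNA in human cells, was called on a level near the filter. It was at 1.76, 2.36 and 1.36 FPKM in the glands and at 5.64, 4.50 and 4.17 in the tumours, with a change of 1.03 (SE 0.19, limma, adjusted p = 0.00463). Its near-identical copy Gm15772 (99.5% identity) was at 1445, 1449 and 1600 FPKM in glands and at 2491, 1592 and 1508 in tumours. With both summed the groups overlapped, and the change of Rpl26 was 0.28 (limma, adjusted p = 0.331). Rpl34 was at 32.2, 41.2 and 34.99 FPKM in glands and at 93.9, 69.4 and 31.7 in tumours, with Rpl34-ps1 at 188, 159 and 218 and at 335, 196 and 172. Most of what either locus held was thus listed under the pseudogene. Summing copies for all members left 10 higher and 2 lower, and the sum of members and copies was 14.6%, 13.4% and 15.4% of the total in glands and 18.8%, 15.6% and 14.7% in tumours.

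**Figure D4:**
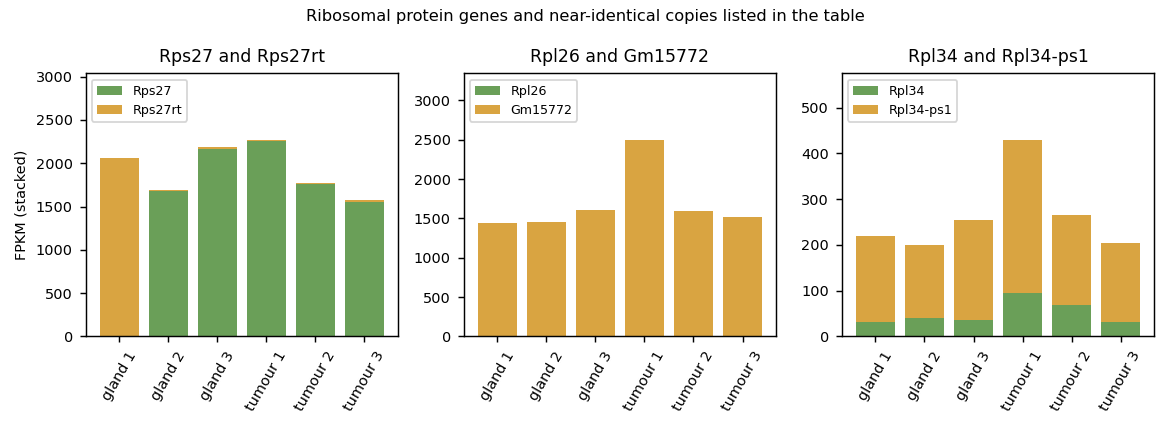
Stacked bars show FPKM per library for 3 ribosomal protein genes (green) and a near-identical copy listed in the table (orange). Of the summed level of Rps27 and Rps27rt, almost all is in the Rps27rt row in gland 1 and in the Rps27 row elsewhere. For Rpl26 and Gm15772 almost all is in the Gm15772 row in every library.

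Members whose change differed from that of the set were found by centring each library on the median of its canonical members before the fit. Relative to that median 7 members were higher (Rpl26, Rps27l, Rpl36al, Rpl37a, Rpl31, Rpl41 and Rpl7) and 3 were lower (Rps4l, Rpl39l and Rplp2). Rpl39l entered this fit too through its gland values alone, so its call carries no weight. In the same fit 33.1% of all genes were called, 9.28% higher and 23.8% lower. Of the 84 members tested, 7 higher is a share close to that of all genes, and 3 lower is a share below it. Rpl41 was higher than the set by 0.52 (SE 0.09, limma, adjusted p = 0.00265) and Rpl37a by 0.47 (SE 0.10, limma, adjusted p = 0.00705). Rps27l exceeded it by 1.13 (SE 0.18, limma, adjusted p = 0.00139). These calls of Rps27l and Rpl41 held without any 1 library, and that of Rpl37a was lost without gland 1 (limma, adjusted p = 0.0513). The relative call of Rpl26 was lost without gland 1 (0.111), gland 3 (0.166) or tumour 2 (0.0929), and that of Rpl36al without gland 3 (0.0649). That of Rpl31 was lost without gland 1 (0.187), gland 2 (0.0996), gland 3 (0.162) or tumour 2 (0.155), and that of Rpl7 without gland 1 (0.0958). The count of 7 fell to 3 without gland 1 and to 4 without gland 3, and the count of 3 rose to 5 without tumour 3. With copies summed 6 were higher and 4 lower: Rpl26 was then at 0.10 relative to the set (limma, adjusted p = 0.532), and Rps27 was lower, at -0.27 (limma, adjusted p = 0.0463).

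Of the stalk proteins, Rplp2 passed relative to the set. Rplp2 was at 1641, 1451 and 1647 FPKM in glands and at 1635, 1419 and 1253 in tumours. It was the canonical 60S gene with the lowest change, -0.14 (SE 0.16, limma, adjusted p = 0.487), and relative to the set it was lower, at -0.34 (SE 0.09, limma, adjusted p = 0.0181). That call was lost without gland 1 (0.11) or gland 3 (0.0704). Its dimer partner Rplp1 had a change of 0.41 (SE 0.23, limma, adjusted p = 0.189) and their anchor Rplp0 one of 0.27 (SE 0.15, limma, adjusted p = 0.191), neither of which passed relative to the set. Without tumour 1 the changes of Rplp1 and Rplp0 were 0.22 and 0.17, and without tumour 3 that of Rplp1 was 0.61 and passed (limma, adjusted p = 0.0352). The 3 proteins were not tested against each other.

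A further 9 members were read for known roles, and they did not pass the test as reported. Rpl5 and Rpl11, which with 5S rRNA bind Mdm2, had changes of 0.26 and 0.27 (limma, adjusted p = 0.129 and 0.36). Rps6, the substrate of S6 kinase, was at 653, 609 and 728 FPKM in glands and at 838, 653 and 504 in tumours, a change of -0.02 (limma, adjusted p = 0.939). Rps19, which is mutated in Diamond-Blackfan anaemia in humans, spanned 501 to 1184 FPKM across the tumours alone, with a change of -0.02. Rpsa, also known as the laminin receptor, had a change of 0.24, and Rps27a, made as a ubiquitin fusion, one of 0.37. Rpl10 (0.17), Rpl13a (0.31) and Rpl38 (0.44), which in mice is needed for translation of Hox mRNAs, also did not pass. Of these 9, Rps27a passed without tumour 3, and Rpl5, Rpl11, Rpl38, Rpsa and Rps27a passed once the trend on gene length and GC content was removed. Fau and Gnb2l1, ribosomal proteins outside the symbol rule, also did not pass, with changes of 0.33 and 0.26.

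Promoters of the ribosomal protein genes share sequence that the symbol rule did not use. Windows of 300 bases, 250 before and 50 after the start, were taken from RefSeq for GRCm38.p6, with 1 window per gene, and 64 of 85 members matched. CGGAAG, the core bound by ETS factors, was present on either strand in 67.2% of the 64 (43) and in 17.2% of all 27025 windows. CTTTCC, searched on the sense strand for the pyrimidine tract, was present in 35.9% of members and 14% of all. CACGTG, the E-box bound by Myc, was in 7.81% of members and 7.24% of all, and TATAAA in 9.38% and 14.2%. Of the 9 matched members that were higher in tumours, 8 had CGGAAG, 3 CTTTCC, 0 CACGTG and 1 TATAAA. The 120 bases before the start are shown for the rising canonical gene Rpl37a (chr1:72711140-72711259, plus strand) and for Rps27l (chr9:66945966-66946085, plus strand), with capitals for CGGAAG or its complement CTTCCG. Rpl37a holds 2 matches there and Rps27l none. Of other rising members read over the same 120 bases, Rpl41 holds a match, while Rpl31, Rpl7a, Rpl36al and Rpl7l1 hold none. The pair shown is therefore not a contrast of canonical genes with paralogs. The counts above are over the whole windows of 300 bases.
Rpl37a: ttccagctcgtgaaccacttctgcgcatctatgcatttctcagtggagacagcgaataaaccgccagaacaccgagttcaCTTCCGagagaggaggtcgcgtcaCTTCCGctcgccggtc
Rps27l: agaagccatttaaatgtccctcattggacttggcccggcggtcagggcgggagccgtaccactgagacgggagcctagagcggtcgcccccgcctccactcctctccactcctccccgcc
A match describes the letters only.

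The other genes that make and run ribosomes were counted from lists chosen by function. The shares below are to be read against all tested genes, of which 21.9% rose and 23.1% fell. Of 83 ribosome assembly factors 49 rose and the other 34 did not pass, with a median change of 0.43, beside 0.24 for the ribosomal proteins and 0.01 for all genes. Rrp15 went from 13.9 ± 0.88 to 35.9 ± 3.4 FPKM (SD, n = 3), a rise of 1.31 (SE 0.11, limma, adjusted p = 0.000213). Nop58, a core protein of box C/D snoRNPs, went from 30.2 ± 3.0 to 62.7 ± 1.7 FPKM, a rise of 1.04 (SE 0.11, limma, adjusted p = 0.000424). Fbl, the rRNA methyltransferase, had a change of 0.36 that did not pass (limma, adjusted p = 0.055). Of 17 RNA polymerase I genes 4 rose and the other 13 did not pass, a share of rises near that of all genes. The median was 0.25, and those that rose included Taf1d (0.87) and Taf1a (0.72). Of 10 snoRNA host genes, several of which carry the pyrimidine tract of ribosomal protein genes, 3 rose and 1 fell. Gas5 went from 32.7, 33.3 and 40.5 FPKM to 64.3, 58.2 and 48.4, a rise of 0.67 (SE 0.14, limma, adjusted p = 0.00923). Of 77 mitochondrial ribosomal proteins 18 rose and the other 59 did not pass, again near the share of all genes, with a median of 0.28.

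Translation factors moved in both directions, and their counts are likewise to be set beside 21.9% of all genes higher and 23.1% lower. Of 43 initiation factors 18 rose and 3 fell, with a median of 0.32. Eif5b, which joins the subunits, went from 13.5 ± 0.2 to 38.8 ± 6.5 FPKM (SD, n = 3), a rise of 1.44 (SE 0.14, limma, adjusted p = 0.000333). Eif4a1, the main cap helicase, rose by 0.80 and its relative Eif4a2 fell by 0.45 (SE 0.09, limma, adjusted p = 0.0081). Eif4e3 fell by 3.25, from 26.7 to 1.95 FPKM. Of 14 elongation and termination factors 6 rose and 1 fell. Eif5a, which carries hypusine, went from 462 ± 7 to 877 ± 101 FPKM, a rise of 0.92 (SE 0.13, limma, adjusted p = 0.00142). Eef1a1 and Tpt1, whose mRNAs also begin with a pyrimidine tract, were at 4672 and 3344 FPKM in glands and at 4394 and 3170 in tumours and did not pass. Of 13 nascent-chain and ribosome-rescue genes 6 rose and the other 7 did not pass, and of 23 genes of mTOR signalling, eIF2 kinases and Larp proteins 3 rose and 1 fell, with a median of -0.01. Eif2ak2, the kinase PKR, had the largest rise among these, 1.61. Over the lists of this and the preceding paragraph, with the ribosomal protein pseudogenes and without the mitochondrial ribosomal proteins, 90 genes rose and 6 fell. Of the 90, 49 were among the 83 ribosome assembly factors, so the pooled count is not an even rise across lists. The 90 became 59 without gland 1 or tumour 2 and 19 without glands 1 and 3.

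**Figure D5:**
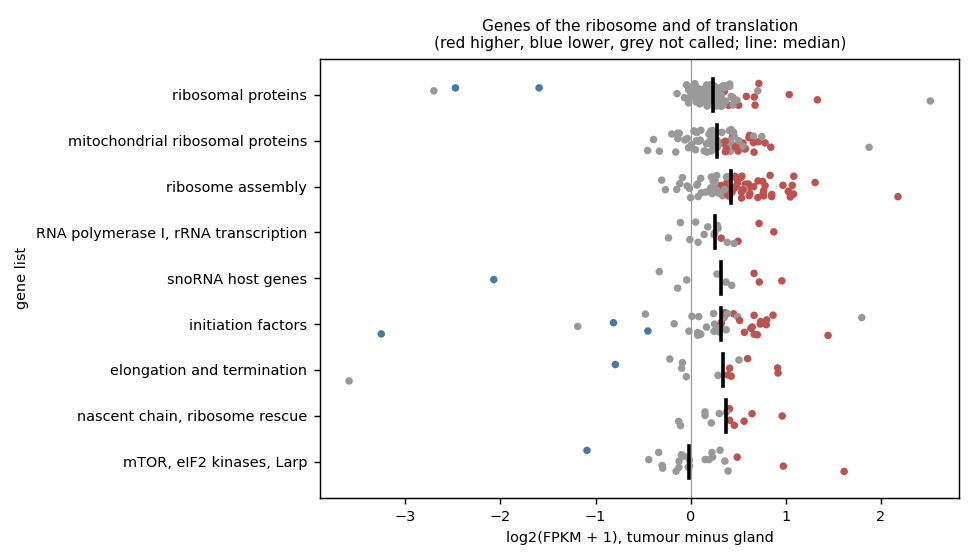
Each point is 1 tested gene at its change (tumour minus gland, log2(FPKM + 1)), in rows by list, with black lines for medians. Ribosome assembly has its median furthest to the right at 0.43, while most ribosomal proteins lie in grey close to 0.24.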

How the data were processed

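RNA-seq of 3 mammary gland and 3 mammary tumour libraries was analysed from a single deposited table. Per the submitters' processing notes, HISAT2, StringTie and the build mm10 were used, without versions. The header names no unit, and what the authors deposited was read as FPKM, because the values are not whole and sum to 486080 to 582996 per library. FPKM carry no counts, so read depth is unknown and counting error did not enter the tests. Libraries were compared with limma 3.58.1 with a mean-variance trend (R 4.3.3) on log2(FPKM + 1) for genes averaging 1 FPKM or more, 2-sided, with Benjamini-Hochberg adjustment over all 13364. The fit was tested on simulated data with independent noise and a small share of changed genes. That differs from these data, where 45.1% of genes were called and members shifted together, so the simulation does not bear on the calls. Same-numbered glands and tumours had deviations with r = -0.05, -0.12 and -0.12 across genes, so the numbers were not used as pairs. Symbols were matched to GENCODE M21 (98.5%), and near-identical copies were found with BLAST 2.17.0. Every member could be named. Those given in full were up to 8 per direction by adjusted p, up to 4 with the highest level, the extremes relative to the set, both genes of a pair and members with known roles. From each related list up to 3 per direction and up to 2 that did not pass were eligible. Other members are named for their values. The members and lists were chosen with earlier results of these data known. Alternatives were a pseudocount of 0.1, other filters and scalings, a replicate block, removal of length and GC trends, and libraries left out. Summing near-identical copies was added after seeing the data. 1 gene of the related lists is not reported here.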

Additional observations from a re-analysis of the deposited data

How the results depend on the processing

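The change of Rps4l was called under all 17 alternatives, and that of Rps27l under 16 of 17. The 11 members higher became 7 with no filter, 6 with median-of-ratios scaling, 39 with length and GC trends removed and 0 without glands 1 and 3, and 3 to 16 with 1 library left out. The 2 lower became 1 with a mean of at least 5 FPKM, where Rpl39l was not tested, and 2 to 3 with 1 library left out. The count of 3 was without gland 1, where the call gained was that of Rpl3l, which carries no weight. Relative to the set, the 7 higher ran from 3 to 9 and the 3 lower from 2 to 5 with 1 library left out, and 1 was higher without glands 1 and 3. In the related lists the 90 higher became 140 with length and GC trends removed, 59 to 95 with 1 library left out and 19 (3 lower) without glands 1 and 3. Of all genes 2933 were higher and 3090 lower, against 1864 lower with a mean of at least 5 FPKM, 4588 higher and 2777 lower with the trends removed, 3663 and 2620 under quantile normalization and 790 and 1262 without glands 1 and 3. With the replicate number as a block, which the data did not show to pair the libraries, 3 members were higher and 2 lower, 4 were higher relative to the set, and 55 genes of the related lists were higher; the block with trends removed gave 33 members higher. Rplp2 turned to 0.02 with the trends removed, with or without the block, and Rps27 to -0.087 with copies summed and, with 1 library left out, ran from -0.056 (without gland 1) to 3.90. The log2 ratio of Rpl22l1 to Rpl22 ran from -0.31 to 0.021 with 1 library left out. That of Rps27l to Rps27 ran from -2.54 to 1.38 there, and was 1.23 without glands 1 and 3 and 1.42 with copies summed. The cause was not tested. In gland 1 Rps27 was at 8.05 FPKM and its copy Rps27rt at 2051 FPKM. Depth is unknown, and values near 1 FPKM, as of Rpl26, Rpl29 and Rpl39l, are the least certain.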

Other observations

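The neighbourhoods of the called members were read after their values were seen. Rpl37a, Rpl31 and Rpl7, which passed as measured and relative to the set with all 6 libraries, lie on chromosome 1 (chr1:72711290-72713813, chr1:39367842-39371911 and chr1:16101295-16104662). Within 1 Mb of Rpl37a, 6 of 7 tested genes rose and their median change was 0.93. Near Rpl31 8 of 12 rose and 3 fell (median 0.51), and near Rpl7 3 of 7 rose (median 0.38). Near Rpl41 on chromosome 10, 9 of 47 rose and 15 fell (median -0.01), and near Rps27l on chromosome 9, 1 of 15 rose and 4 fell (median -0.08). Near the other called members, 6 of 18 rose and 1 fell at Rpl36al, and 14 of 43 rose and 4 fell at Rpl7l1. At Rpl8 15 of 57 rose and 9 fell, and at Rps2 14 of 64 rose and 16 fell. At Rpl7a 5 of 31 rose and 6 fell, and at Rpl26 9 of 49 rose and 9 fell. At Rpl39l 3 of 11 rose and 2 fell, and at Rps4l 2 of 8 rose and 2 fell. The medians of this second group ran from -0.13 (Rpl26) to 0.31 (Rpl7l1). Over all tested genes 21.9% rose and 23.1% fell. Neighbouring genes are not independent of each other, and no test was made.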
